A study of Rattus norvegicus with 30 samples.

Results

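Expression of 9 genes of the renin-angiotensin and endothelin systems (Agt, Ace, Agtr1a, Agtr2, Edn1, Edn3, Ece1, Ednra and Ednrb) was followed in rat hearts. They were taken by gene symbol, with every table row of a name and every array probe. Of the 9 genes, 7 had rows in the authors' tables of normalized values, 10 rows in each of the 3 tables, among 27408 rows at 8 weeks, 27383 at 21 weeks and 26553 at 78 weeks. Agtr2 and Edn3 had no row. On the array itself the 9 genes had 16 probes of 41012.

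Whole hearts came from untreated F344 (Fischer) rats, an inbred strain, of the National Center for Toxicological Research breeding colony. There were 5 females and 5 males at 8 weeks (young), 5 and 5 at 21 weeks (adult) and 5 and 5 at 78 weeks (old), with 1 array per rat. RNA of each heart was labeled with Cy3 and hybridized to an Agilent whole genome array for rat, on which a probe of 60 bases reports a transcript. The question the design addresses is whether the sexes differed within an age. By the authors' account ages were run in different batches, so an age difference and a batch difference cannot be told apart.

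In the renin-angiotensin system, angiotensinogen (Agt) is a secreted precursor that renin and then angiotensin-converting enzyme (Ace) cut to angiotensin II, which acts on the type 1 receptor (Agtr1a) to constrict vessels and on the type 2 receptor (Agtr2), which often opposes it. Endothelins (Edn1, Edn3) are peptides made from larger precursors by the endothelin-converting enzyme (Ece1). Their type A receptor (Ednra) sits on smooth muscle and cardiomyocytes and contracts vessels, and their type B receptor (Ednrb) sits also on endothelium, where it relaxes vessels and clears the peptide.

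The values of Agt, Ednra and Ednrb turned on the following probes, and they are printed to show which stretch of each transcript was read. Positions are those of the array's annotation on rat build rn3. The probe A_43_P13272 of Agt lies at chr19:54743746-54743805 on the minus strand, and A_44_P435618 of Ednrb at chr15:87909414-87909473 on the minus strand. Ednra had a pair of probes on the plus strand of chromosome 19. A_43_P11459 was placed between bases 32107866 and 32109866, a span of 2001 bases for a probe of 60, and A_44_P914382 at chr19:32112492-32112551. The scanner files name the latter RGD1559432_predicted, while the authors' row that its values match is named Ednra. Only its first 24 bases are given.
Agt, A_43_P13272: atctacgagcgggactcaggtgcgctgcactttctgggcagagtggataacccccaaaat
Ednrb, A_44_P435618: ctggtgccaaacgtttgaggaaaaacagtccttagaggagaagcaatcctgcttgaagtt
Ednra, A_43_P11459: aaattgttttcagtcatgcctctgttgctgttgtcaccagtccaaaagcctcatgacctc
Ednra, A_44_P914382, first 24 bases: agtcacctggagtttctgtcagat

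Levels are given on a pair of scales, which are not mixed. Within an age, a value is log2 of the authors' table value, scaled in each table to the 75th percentile of the array. Across ages, where the 3 tables were scaled separately, a value is log2 of the processed signal of the scanner file minus log2 of the 75th percentile of that array, so that 0 is the 75th percentile. A probe counted as measured on an array where the scanner software called at least 50% of its spots well above background. Of the 16 probes, 5 failed this on nearly all arrays (Agtr2 with 0 of 30 arrays for each of its 2 probes, Edn3 with 0 of 30, Ece1 A_44_P526836 with 0 of 30 and Ace A_43_P11457 with 4 of 30), and no probe was saturated.

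The arrays were alike in general, with the 75th percentile of the signal between 82.7 and 171.3 in every group but the adult males, where it ran from 39.9 to 104.8 (median 72.1) against 82.7 to 123.1 (median 105.9) in adult females. On 2 arrays of the old rats, female replicate 2 and male replicate 3, genes of the Y chromosome had levels typical of the opposite sex. The 78-week sex differences of Agtr1a, Edn1, Ednra and Ednrb and an age difference of Ace are therefore also given without them. Other 78-week values include both arrays. Females were always at array positions 2 or 4 and males at 1 or 3. The tissue showed its defining markers: Myh6, Actc1, Tnnt2, Tnni3, Ryr2 and Mb of cardiomyocytes and Nppa, Myl7, Myl4 and Sln of atria were well above background on 30 of 30 arrays, and Pln, also a cardiomyocyte gene, on 0 of 30. In whole hearts fewer cells of a type and less RNA per cell cannot be told apart, which holds for every value below.

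**Figure D1:**
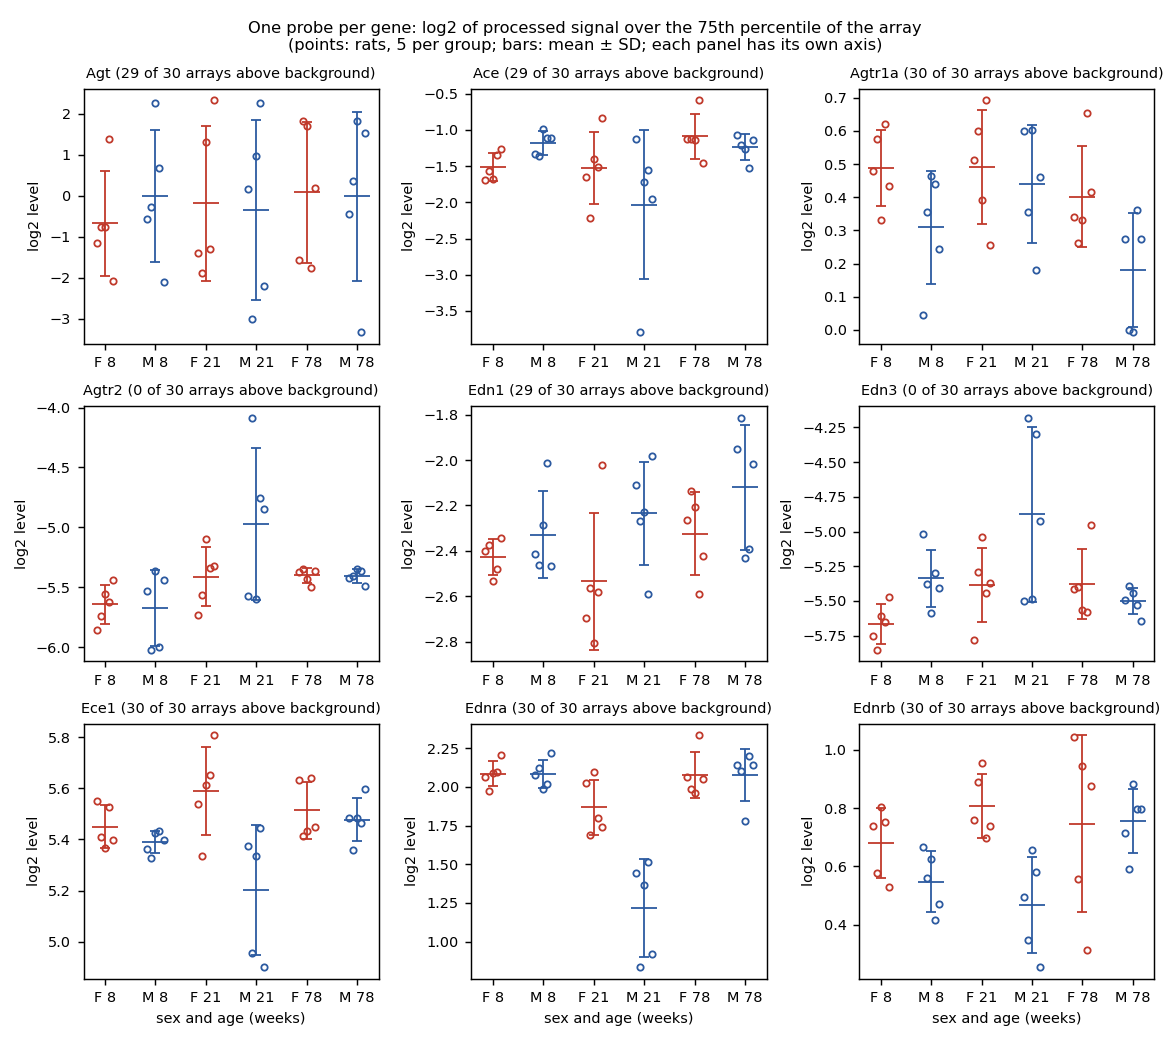
Level of each gene in each rat on the scale across ages (log2 of processed signal, with each array divided by its own 75th percentile), for the probe measured on most arrays; points are rats, 5 per group, and bars show the mean ± SD. Agt ranged from -3.33 to 2.32 within these hearts, Ednra was lower in the 5 adult males (0.84 to 1.52) than in all other rats (1.69 to 2.33), and no array had Agtr2 or Edn3 well above background.

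Angiotensinogen differed most between individual rats. Its level, on the scale across ages, was -1.15, -0.78, -0.77, 1.39 and -2.08 in the young females and -0.57, -0.28, 2.26, 0.66 and -2.10 in the young males. In adult females it was -1.40, -1.88, 1.31, -1.31 and 2.32, and in adult males 0.17, -3.00, 0.97, 2.26 and -2.20. Each group held rats of high and of low Agt, and all groups overlapped. Old females had -1.57, 1.83, 1.71, -1.76 and 0.18, and old males -0.45, 0.36, 1.81, -3.33 and 1.53. The highest and the lowest of the 30 hearts differed 50.3-fold.

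Group means of Agt were close beside this spread. They were -0.68 ± 1.27 (SD, n = 5) in young females and -0.00 ± 1.61 in young males, -0.19 ± 1.88 and -0.36 ± 2.19 in adult females and males, and 0.08 ± 1.72 and -0.02 ± 2.07 in old females and males. The SD within groups was 1.82, and 16 of the 20358 probes ranked had a higher one, against a median SD of 0.25 (0.249). The 10 spots of the Agt probe on an array had a median SD of 0.11 (0.107), so the spread between hearts was far above that between spots. Agt was well above background on 29 of 30 arrays, the exception being in adult males.

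Adipose transcripts varied with Agt from heart to heart. Of the adipose list (Adipoq, Lep, Plin1, Cfd, Ucp1, Fabp4), 4 genes were measured on at least 15 of the 30 arrays, Lep was well above background on 0 of 30 and Plin1 on 13 of 30. The summed level of the 4 genes, as a multiple of the 75th percentile, ran from 53.9 to 123 in young females, 59.3 to 161 in young males, 57.3 to 267 in adult females, 80.6 to 199.7 in adult males, 81.8 to 201 in old females and 57.1 to 304 in old males. After each group's mean was subtracted from log2 values, Agt and this sum had a Pearson correlation of 0.858 and a Spearman correlation of 0.837 over 30 rats (permutation test within groups, two-sided, p = 1e-05 for each, the smallest that 100000 permutations can give). Without the 2 rats farthest from the median of the adipose sum, r was 0.855.

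The relation held within each age, with r of 0.934 at 8 weeks, 0.794 at 21 weeks and 0.891 at 78 weeks (10 rats each). The rat highest in Agt was also the highest in the adipose sum in 6 of 6 groups, and the lowest in Agt was the lowest in the sum in 3 of 6. Of the single genes, Ucp1, the uncoupling protein of brown fat, had r = 0.946 and Adipoq, the fat cell hormone adiponectin, r = 0.944. Fabp4, a fatty acid carrier also found in endothelium, had r = 0.465. In all, 11 lists of cell type markers were set against Agt, and with Benjamini-Hochberg adjustment over them the permutation p was 0.00011 for the adipose list. It was also 0.00011 for the Schwann cell list (r = 0.744), and 0.011 each for the smooth muscle and pericyte list (r = 0.593) and the macrophage list (r = -0.616). Genes within the latter lists were split. Of the macrophage list Cd74 had r = -0.648, Csf1r -0.143, Cd68 -0.051, Cd14 -0.003 and Ptprc 0.284. Of the smooth muscle and pericyte list Rgs5 had r = -0.775 and the other measured genes 0.362 to 0.660. Liver markers, of which 2 of 4 were measured, gave r = -0.03 and were split too, with Alb at 0.399 and Ttr at -0.506. The lists were chosen with earlier results of these data known, so the permutation p-values of Agt and the lists are descriptive. The part of these cells in the Agt values was not tested.

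**Figure D2:**
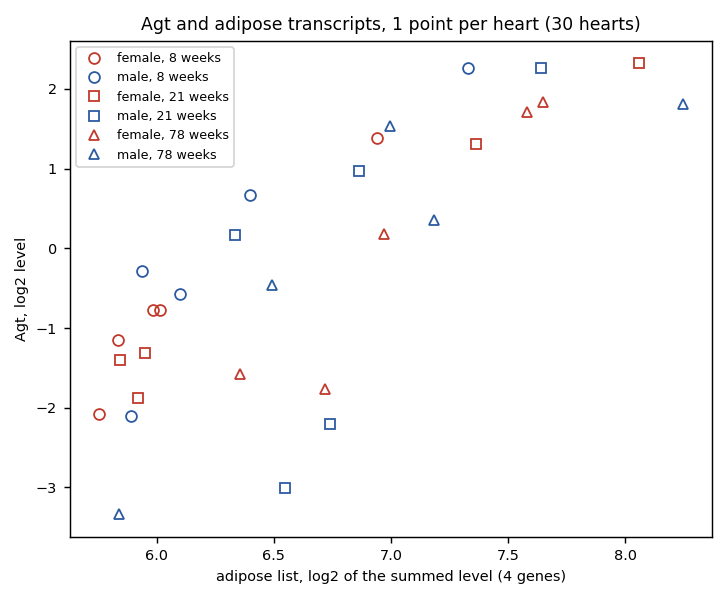
Agt level against the log2 of the summed level of 4 adipose genes, 1 point per heart, both relative to the 75th percentile of the array; colors are sexes and symbols are ages. Hearts high in adipose transcripts were high in Agt at each age (r = 0.934, 0.794 and 0.891 after group means were removed).

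The probes most like Agt over the 30 arrays, among 14423 probes well above background on all arrays, were those of Grifin (r = 0.961), Retn (r = 0.960) and Fasn (r = 0.959), the last a fatty acid synthase and Retn the fat cell hormone resistin. These correlations are a description, since the points share arrays and scaling.

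Sex differences were tested in each table with limma over all its rows, with Benjamini-Hochberg adjustment and a threshold of 0.05. In young rats, 0 of 10 rows of these genes passed, where 0.102% of all rows did (28 of 27408), and 2 of 10 had an unadjusted p under 0.05, which 5.74% of all rows had. The median difference, females minus males, was -0.07 on the log2 scale over the 10 rows and -0.00 over all rows. None of the 10 rows had groups that did not overlap, which 1.41% of all rows had. The methods' t-test, too, called 0 of the 10.

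The smallest unadjusted p of young rats was that of Ace. Its table values, log2, in row 2 (A_44_P513075) were -2.38, -2.27, -2.36, -2.02 and -1.96 in females and -2.01, -2.04, -1.66, -1.77 and -1.81 in males. The means were -2.20 ± 0.20 and -1.86 ± 0.16 (SD, n = 5 each), and females 4 and 5 overlapped the males. The difference of -0.34 (SE 0.11, 95% interval -0.60 to -0.08), or 1.27-fold higher in males, had an exact permutation p of 0.0397 and an adjusted p in limma of 0.745. Within the 3 slides it was -0.30 and -0.48 (2 rats of each sex) and -0.15 (1 of each sex). With normexp background correction it was -0.12. The other Ace row was measured in 0 of 5 young females and 3 of 5 young males, with a difference of -0.60 and an adjusted p in limma of 0.803.

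The remaining rows of young rats differed little or had wide intervals. Agt differed by -0.69 (95% interval -2.57 to 1.20). Ednra, row 1, differed by -0.01 (-0.17 to 0.14), Ece1, row 2, by 0.01 (-0.15 to 0.17) and Agtr1a by -0.03 (-0.29 to 0.23). The Agt interval was the widest of the 10 rows. Edn1 differed by -0.12 (-0.35 to 0.11) and Ednrb by 0.12 (-0.07 to 0.30). Adjusted p-values in limma of all 10 rows lay at 0.745 or above.

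In adult rats the values of both endothelin receptors lay above all males in all females, yet neither passed the adjusted test. Ednra, row 1 (A_44_P914382), had table values of 1.31, 0.99, 1.38, 1.10 and 1.02 in females and 0.76, 0.13, 0.69, 0.85 and 0.18 in males. The lowest female lay above the highest male. The means were 1.16 ± 0.18 and 0.52 ± 0.34 (SD, n = 5 each), a difference of 0.64 (SE 0.18, 95% interval 0.24 to 1.03), or 1.56-fold. An exact permutation test gave p = 0.0079, which none of the 252 splits of 10 rats can go below, and the adjusted p in limma was 0.268. Within the 3 slides the difference was 0.84 (1 rat of each sex), 0.71 and 0.47 (2 of each sex).

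Ednrb had table values of 0.05, 0.19, 0.24, 0.00 and 0.02 in adult females and -0.19, -0.36, -0.02, -0.08 and -0.48 in adult males. Again all females lay above all males, the nearest pair being a female at 0.00 and a male at -0.02. The difference was 0.33 (SE 0.13, 95% interval 0.04 to 0.62), or 1.25-fold, with an exact permutation p of 0.0079 and an adjusted p in limma of 0.291. Within the slides it was 0.50 (1 rat of each sex), 0.40 and 0.18 (2 of each sex). It was 0.19 with normexp background correction. In total 2 of the 10 rows had groups that did not overlap, where 4.05% of all rows did (1109 of 27383), and 0 of 10 passed the adjusted test, where 0.0511% of all rows did.

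Several measures differed between the adult sexes beside these receptors. The adult male arrays were weaker, as given above, and the median difference over all rows was -0.14, against 0.14 over the 10 rows of these genes. Means of summed marker lists differed too, without a test, on the log2 scale and females minus males: smooth muscle and pericyte genes by 0.35, endothelial genes by 0.24, cardiomyocyte genes by -0.45 and atrial genes by -0.39. Liver genes differed by -0.47, erythroid by -0.45, macrophage and leukocyte by -0.37 and adipose by -0.20. Schwann cell, mast cell and fibroblast genes differed by 0.12, 0.03 and -0.03. In young rats the smooth muscle, endothelial and cardiomyocyte lists differed by 0.07, -0.05 and 0.09, and the erythroid list by -0.65. The part of array strength and of these cells in the receptor differences was not tested. Without male replicate 2, the weakest array, the differences were 0.54 for Ednra (limma, adjusted p = 0.471) and 0.30 for Ednrb (adjusted p = 0.518).

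The second Ednra row, read by the probe that spans 2001 bases of rn3, differed by -0.02 (95% interval -0.77 to 0.74) in adult rats, with 2 of 5 females and 0 of 5 males measured. Over the 30 arrays the deviations of the 2 Ednra probes from their group means correlated at r = 0.27. The Ednra values of adult rats given here therefore rest on probe A_44_P914382.

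The ligand ran the other way in adult rats, within its error. Edn1, the vasoconstrictor peptide of endothelium, had table values of -3.40, -3.23, -3.58, -3.28 and -2.74 in females and -2.79, -2.98, -2.90, -3.26 and -2.72 in males, so that females 2 and 5 lay above the lowest male. The difference was -0.32 (SE 0.18, 95% interval -0.71 to 0.07, exact permutation p = 0.111, limma, adjusted p = 0.360). Ece1, row 2, which averages 3 probes, differed by 0.28 (-0.13 to 0.69), and Agtr1a by 0.15 (-0.26 to 0.56), which turned to -0.20 with normexp correction and -0.02 with the raw median signal. Ace, row 2, differed by 0.49 (-0.52 to 1.51), but by -0.28 with normexp correction and -0.11 with the raw median signal. Male replicate 2 had the lowest Ace value of the 10 rats, -4.50 against -2.92 in the next, and without it the Ace difference was 0.05. Agt differed by 0.13, and without the same rat by -0.51, with normexp correction by -0.36 and with the raw median signal by -0.16.

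In old rats 0 of the 10 rows passed, as did 0% of all 26553 rows under limma. Of all rows, 1501 had an unadjusted p under 0.05. Under the methods' t-test with the same adjustment, 0 passed. None of the 10 rows had groups that did not overlap, where 0.9% of all rows did. The largest differences were -0.23 in Agtr1a (95% interval -0.66 to 0.20, limma, adjusted p = 0.866) and -0.20 in Edn1 (-0.53 to 0.12, limma, adjusted p = 0.858). Slide by slide (2, 1 and 2 rats of each sex) they were -0.05, -0.17 and -0.44 in Agtr1a and -0.09, -0.34 and -0.25 in Edn1.

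Old rats' Ednra differed by -0.01 (-0.26 to 0.23) and Ednrb by -0.03 (-0.36 to 0.30). In adult rats the Ednra difference was 0.64 (0.24 to 1.03). A direct test of the change between 78 and 21 weeks, on the scale across ages, did not pass (limma, adjusted p = 0.216). Without the arrays at odds with their label, Agtr1a differed by -0.29, Edn1 by -0.33, Ednra by -0.07 and Ednrb by 0.05, with 0 of 10 rows called and 9 of all rows. The sign of the Ednrb difference thus depended on these arrays, and those of Edn1 and Agtr1a on the background correction (0.13 and 0.02 with normexp).

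**Figure D3:**
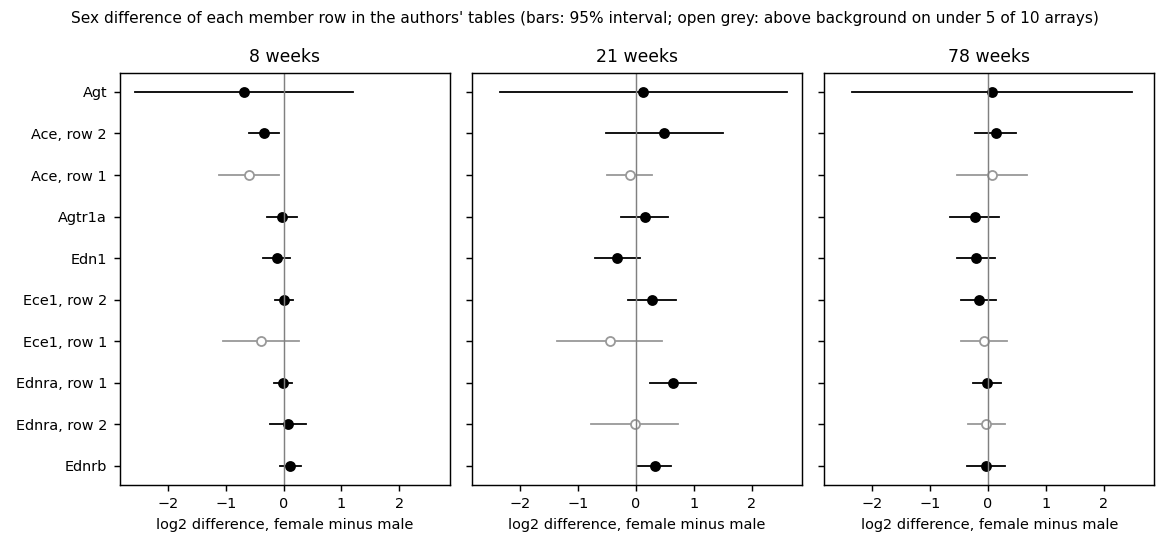
Difference in log2 table value, females minus males, of each of the 10 rows at 8, 21 and 78 weeks, with 95% intervals from limma; open grey points are rows measured on under 5 of the 10 arrays of that age. Ednra row 1 (0.64) and Ednrb (0.33) at 21 weeks lie above 0, Ace row 2 (-0.34) at 8 weeks lies below it, and the Agt intervals are the widest.

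Averaged over the 3 ages on the scale across ages, with 15 females against 15 males, 0 of 16 probes passed, where 0.439% of all probes did (180 of 40996), and 6 of 16 had an unadjusted p under 0.05, which 12.8% of all probes had. Ednra A_44_P914382 was higher in females by 0.22 (95% interval 0.07 to 0.37, limma, adjusted p = 0.154). Ece1 A_42_P839121 was higher by 0.16 (0.04 to 0.29, limma, adjusted p = 0.226), Ednrb by 0.15 (0.01 to 0.29, 0.328) and Agtr1a A_44_P476936 by 0.15 (0.01 to 0.29, 0.327). Edn1 was lower in females by 0.20, a difference of -0.20 (-0.37 to -0.03, limma, adjusted p = 0.299). The other of the 6 was Edn3, which was never well above background. The second Agtr1a probe differed by -0.03 (-0.22 to 0.17).

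Whether the sex difference itself changed with age was tested as well. None of the 16 probes passed between 21 and 8 weeks, between 78 and 8 weeks or between 78 and 21 weeks, where 0.00244%, 0% and 0.00244% of all probes did. For Ednra the sex difference was larger at 21 than at 8 weeks by 0.65 (SE 0.18, limma, adjusted p = 0.276) and smaller at 78 than at 21 weeks by 0.65, a change of -0.65 (SE 0.18, limma, adjusted p = 0.216). Without adult male replicate 1 the change between 78 and 21 weeks was -0.70 (limma, adjusted p = 0.0487), and 563 of all probes were then called across the 3 tests, so this call rests on which rats enter.

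Differences between ages, in which the authors' batches cannot be told apart from age, were tested over 30 arrays with limma. Young arrays were scanned on day 1 and adult arrays on day 2. Old arrays were split, with slides 3 and 4 on day 1 and slide 8 on day 2. Between old and young rats, 0 of 16 probes passed, where 8.85% of all probes did (3627 of 40999). Ednra was at 2.08 ± 0.08 and 2.08 ± 0.09 in young females and males and at 2.08 ± 0.15 and 2.07 ± 0.17 in old females and males (SD, n = 5 each), a difference of -0.01 (95% interval -0.19 to 0.17). Edn1 differed by 0.16 (-0.06 to 0.37) and Ednrb by 0.14 (-0.03 to 0.31), where the median over all probes was 0.13. On the slide that held arrays of both ages (2 and 2), the differences were -0.11 for Ednra, 0.30 for Edn1 and 0.38 for Ednrb.

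Adult rats stood apart from both other ages. Between 21 and 8 weeks 6 of 16 probes passed, where 53.5% of all probes did. The median difference was 0.28 over all probes (15976 higher, 5976 lower calls) and -0.02 over the 16. With quantile normalization the median over all probes was 0.05, and the share of calls that were higher moved from 72.8% to 53.0%.

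Ednra A_44_P914382 was lower in adult compared to young rats. It was 2.02, 1.69, 2.09, 1.80 and 1.74 in adult females, which overlapped the young females (1.97 to 2.20), and 1.44, 0.84, 1.37, 1.52 and 0.92 in adult males, all below the young males (1.98 to 2.22). The difference over both sexes was -0.54 (SE 0.09, limma, adjusted p = 2.92e-05). It ranged from -0.49 without adult male replicate 2 to -0.61 with normexp correction, past the threshold each time. Between 78 and 21 weeks Ednra was higher by 0.53 (SE 0.09, limma, adjusted p = 3.07e-05), though with normexp correction the difference of 0.37 had an adjusted p in limma of 0.300. The old rats of slide 8, scanned on the same day as the adults, were at 2.33 and 2.05 (females) and 2.20 and 2.14 (males). The part of scan day was not tested.

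Of the Ece1 probes, 2 also were lower at 21 than at 8 weeks, while A_42_P839121, measured on 30 of 30 arrays, did not pass. A_44_P195356 differed by -0.66 (SE 0.19, limma, adjusted p = 0.00583) and A_44_P991864 by -0.39 (SE 0.11, 0.00399), and A_42_P839121 by -0.02 (SE 0.07, 0.796). A_44_P195356 then was higher at 78 than at 21 weeks by 1.06 (SE 0.19, limma, adjusted p = 8.91e-05). It was well above background in 2 of 5 adult females and 1 of 5 adult males, and in all young and old rats. With quantile normalization A_42_P839121 passed as well, in the same direction, at -0.26 between 21 and 8 weeks (limma, adjusted p = 0.0216) and 0.33 between 78 and 21 weeks (limma, adjusted p = 0.00461). The size of the difference thus varied between probes of this gene and with the scaling, and their deviations within groups correlated between -0.19 and 0.41. With normexp correction 1 of the 16 probes passed between 21 and 8 weeks, the Ednra probe, where 2582 of all 40997 probes did. Between 78 and 21 weeks 0 of the 16 passed with this correction, where 1098 of all 41002 did.

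The 3 other probes past the threshold between 21 and 8 weeks were the Agtr2 probes (0.47 each, limma, adjusted p = 0.00744 and 0.00777) and Edn3 (0.37, 0.0291), none of which was well above background on any array. In adult males Agtr2 A_42_P470283 was at -5.58, -4.09, -5.60, -4.76 and -4.85, highest in replicate 2, where the 75th percentile was 39.9, the lowest of the 30 arrays. The part of array strength in these values was not tested. The log2 differences of these probes are of signal not well above background and are not read as changes of a transcript. With the probes limited to those measured on at least 15 of 30 arrays, 3 of 10 passed, which were the Ednra probe and the 2 Ece1 probes. The share of all probes that passed under this filter is not given, so the count cannot be set against a general rate.

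Between 78 and 21 weeks 3 of 16 probes passed, where 29.9% of all probes did (median over all probes -0.17, over the 16 probes 0.11). Beside Ednra and the Ece1 probe, Ace A_44_P513075 was higher in old rats by 0.62 (SE 0.22, limma, adjusted p = 0.0303). The Ace levels were -1.65, -2.22, -1.40, -1.52 and -0.84 in adult females and -1.13, -3.79, -1.72, -1.56 and -1.96 in adult males, and between -1.52 and -0.59 in all old rats. Old and adult rats overlapped. Without the 2 arrays at odds with their label the difference was 0.62 (limma, adjusted p = 0.0533), and without adult male replicate 2 it was 0.40 (limma, adjusted p = 0.0326). It was 0.52 with quantile normalization (limma, adjusted p = 0.102), 0.11 with normexp correction (limma, adjusted p = 0.999) and 0.22 with the raw median signal (limma, adjusted p = 0.0377). The call was also lost without adult female replicate 2, old female replicate 4 or old male replicate 1.

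**Figure D4:**
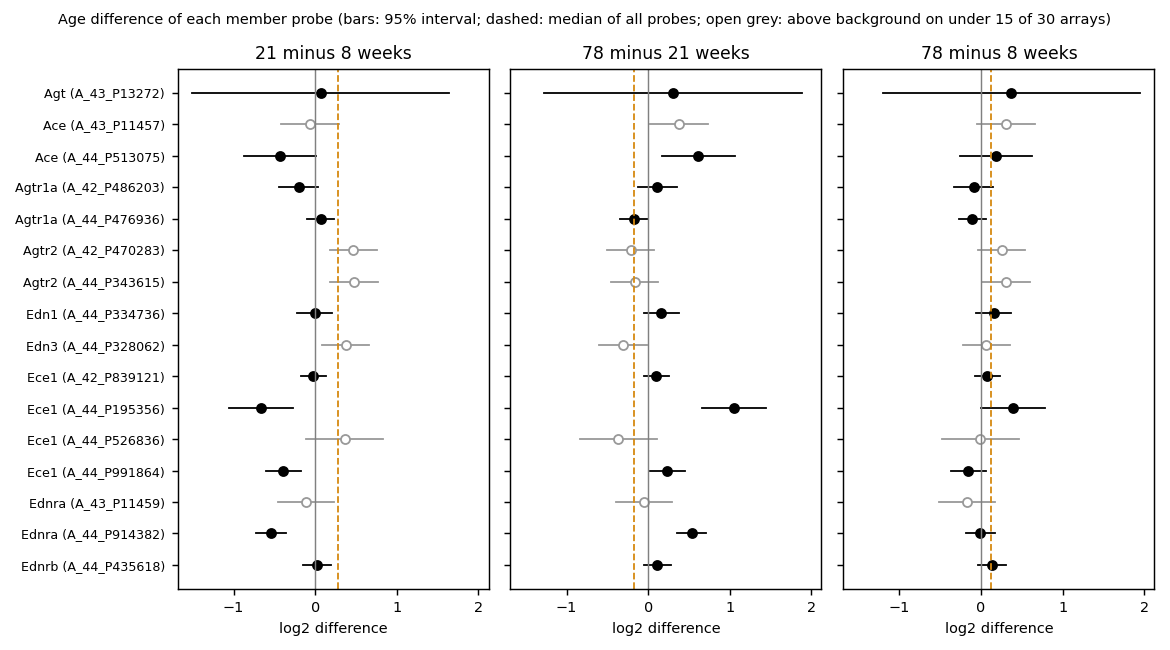
Difference in log2 level of each of the 16 probes between ages, both sexes averaged, with 95% intervals from limma; the dashed line is the median over all probes and open grey points are probes measured on under 15 of 30 arrays. Ednra A_44_P914382 was lower at 21 than at 8 weeks (-0.54), higher at 78 than at 21 weeks (0.53) and near 0 between 78 and 8 weeks (-0.01).

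Agtr1a, through which angiotensin II raises blood pressure, passed no age test and no sex test averaged over the ages on either of its probes. Without adult female replicate 5, A_42_P486203 did pass between 21 and 8 weeks. A_44_P476936 was at 0.49 ± 0.11 in young females, 0.31 ± 0.17 in young males, 0.49 ± 0.17 and 0.44 ± 0.18 in adult females and males and 0.40 ± 0.15 and 0.18 ± 0.17 in old females and males (SD, n = 5 each). It was well above background on 30 of 30 arrays, as was A_42_P486203. The deviations of the 2 probes from their group means correlated at r = -0.43 over 30 arrays. The table rows under the name Agtr1a hold A_42_P486203 only, which passed no sex test at a single age. A_44_P476936 stands there under its probe name, and its sex test at a single age is not given.

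Edn1 was well above background on 29 of 30 arrays, the exception being an adult male. On the scale across ages it was -2.43 ± 0.08 and -2.33 ± 0.19 in young females and males, -2.53 ± 0.30 and -2.24 ± 0.23 in adult females and males, and -2.32 ± 0.18 and -2.12 ± 0.28 in old females and males (SD, n = 5 each). The mean of males was above that of females at each age, and the groups overlapped at each.

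Ednrb was at 0.68 ± 0.12 and 0.55 ± 0.10 in young females and males, 0.81 ± 0.11 and 0.47 ± 0.16 in adults, and 0.75 ± 0.30 and 0.76 ± 0.11 in old rats (SD, n = 5 each). Its 30 values spanned 1.73-fold. Ece1 A_42_P839121 spanned 1.87-fold, with 5.45 ± 0.08 and 5.39 ± 0.04 in young females and males, 5.59 ± 0.17 and 5.20 ± 0.25 in adults and 5.51 ± 0.11 and 5.48 ± 0.08 in old rats. The widest SD of Ece1 was thus in adult males, as it was for Ednra.

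One pair of Ece1 probes reads opposite strands of nearly the same place and is shown because both stand in the tables under the name Ece1 (1 probe on each strand). A_44_P991864 lies at chr5:156745707-156745766 on the plus strand of rn3 and A_44_P526836 at chr5:156745711-156745770 on the minus strand. They share 56 of their 60 bases as reverse complements, and 24 of these are given, in capitals.
A_44_P991864, from base 5: TGTGTCAAATGCTTTAAAGATATA
A_44_P526836, from base 37: TATATCTTTAAAGCATTTGACACA
The plus-strand probe was well above background on 30 of 30 arrays and the minus-strand probe on 0 of 30. The first Ece1 row of each table holds the minus-strand probe, so it gives no level of Ece1.

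Other genes of the pathways were counted from lists of 30 renin-angiotensin, 4 endothelin and 20 receptor coupling genes. In the tables, 0 genes of any list passed in the sex comparison at 8 weeks (24, 3 and 19 measured), at 21 weeks (22, 1 and 19) or at 78 weeks (23, 2 and 19). The smallest p of the renin-angiotensin list in adult rats was that of Hsd11b1, the enzyme that regenerates glucocorticoid, at -0.74 (1.66-fold higher in males, limma, adjusted p = 0.246). Edn2, another endothelin, differed by -0.36 in young, -0.77 in adult and 0.25 in old rats, with adjusted p-values in limma of 0.783, 0.277 and 0.874.

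Averaged over the ages, Nr3c2, the mineralocorticoid receptor through which aldosterone acts, was higher in females compared to males by 0.28 (SE 0.06, 1.21-fold, limma, adjusted p = 0.0310). It was the 1 gene of these lists to pass. The call held in 23 of the 30 settings that left out 1 rat, with a highest adjusted p of 0.06, and with normexp correction the difference was 0.29 (limma, adjusted p = 0.956).

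Between old and young rats 0 genes rose and 5 fell of 18 measured in the renin-angiotensin list, beside 8.85% of all probes called in either direction, and the median over the list was -0.05 and over all probes 0.13. The 5 that fell were Prcp (-0.60), which inactivates angiotensin II, Enpep (-0.23), which trims it, Hsd11b2 (-0.69), which shields the mineralocorticoid receptor from glucocorticoid, and the mast cell proteases Cma1 (-0.83) and Cpa3 (-1.29). Cma1 is the gene of a chymase. Cma1 and Cpa3 also belong to the mast cell list, of which 3 of 4 genes were measured, and the list's summed level ran from 1.54 to 2.32 in young females and 1.21 to 5.03 in young males and from 0.98 (0.979) to 3.52 in old females and 1.24 to 1.73 in old males. The part of mast cells in these differences was not tested. Prcp stayed past the threshold in 37 of 37 other settings, Hsd11b2 in 36, Cpa3 in 35, Cma1 in 27 and Enpep in 24.

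In the receptor coupling list 1 gene rose and 4 fell of 17 between old and young rats, where 8.85% of all probes passed. Rgs2, which dampens signals of angiotensin and endothelin receptors, rose by 0.39 (limma, adjusted p = 0.0181), and Rgs4, with a like function, fell by 0.81 (limma, adjusted p = 1.72e-07). The others were Rgs5 (-0.40), Adrbk1 (-0.24) and Nos3 (-0.27), the nitric oxide synthase of endothelium. Rgs4 passed in 37 of 37 other settings, Rgs5 in 36, Rgs2 and Adrbk1 in 35, and Nos3 in 24, being called in 19 of the 30 that left out 1 rat. Of the endothelin list 1 gene was measured, Edn2, at -0.44 (limma, adjusted p = 0.083) between old and young rats.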

How the data were processed

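Total RNA of 30 hearts, 1 rat each, was read by 1-colour Agilent arrays and Feature Extraction software. The deposited scanner files hold intensity values of 45018 spots with background flags (0 or 1). The authors averaged probes per gene, removed genes not expressed, scaled to the 75th percentile and deposited linear intensity values in 3 tables, 1 per age, whose columns are traceable to rats except for the 21-week males, named by group only. Matching rebuilt values to the tables (within 0.002 on the log2 scale) named the probes of 98.71 to 98.77% of rows, so leaving out an adult male used rebuilt values.

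Log2 values were tested with limma 3.58.1 in R 4.3.3, two-sided, with Benjamini-Hochberg adjustment over all rows or probes. No pseudocount was used, and 0.311% of spots with outlier flags were left out of the rebuilt values. Correlations and exact permutation tests used Python 3.11.15 with scipy 1.17.1. Scripts were tested on simulated data. The alternatives were quantile normalization, normexp (offset 50), the raw median signal, a filter on dim probes, other handling of rows that share a name, the methods' t-test, replicate or slide as a block, and leaving out each rat. Precision is limited by 5 rats per group.

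All probes of the 9 genes were reported, the pathway genes were those past the threshold or, where none was, that of smallest p, and the members and lists were chosen with earlier results of these data known. At 78 weeks, same-numbered females and males deviated together (r = 0.199 to 0.338 over the 5 pairs), so the numbers pair these samples, which lay next to each other on a slide. The main 78-week differences, intervals and p-values come from fits that took no account of these pairs. The Ednra probe A_44_P914382 was named after the authors' row Ednra, whose values it matched.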

Additional observations from a re-analysis of the deposited data

Results flagged for a closer look

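In 6 of the 96 sets of 5 rats (16 probes in 6 groups), 1 rat lay far from the other 4, with a gap to its nearest neighbour above 0.71 of the group's range. Chance gives such a rat in about 1 of 20 groups. Levels are on the log2 scale across ages. For Agtr1a A_42_P486203, young male replicate 3 was at -0.45 (nearest -0.84) and old male replicate 4 at -1.07 (nearest -0.77). For Ednra A_44_P914382, old female replicate 4 was at 2.33 (nearest 2.06) and old male replicate 3 at 1.78 (nearest 2.10), the latter being an array at odds with its sex label. For Ednra A_43_P11459, adult female replicate 5 was at -4.79 (nearest -3.48), on a probe well above background in 2 of these 5 rats. For Ece1 A_44_P526836, old male replicate 2 was at -4.60 (nearest -5.40), on a probe not well above background on any array.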

How the results depend on the processing

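The 0 calls among these genes in the sex comparisons at each age, averaged over ages and between old and young rats held under all alternatives run. Calls among the 16 probes between 21 and 8 weeks numbered 6, where 21952 of all 40997 probes were called. With normexp correction they numbered 1 (2582 of all probes) and with quantile normalization 4 (12774 of all). The latter gained Ece1 A_42_P839121 and lost the Agtr2 and Edn3 probes. With the raw median signal they numbered 9 (31034 of all), and with 1 rat left out 5 to 8 (19274 to 23858 of all). With the filter on dim probes 3 of 10 passed, and the share of all probes is not given. Between 78 and 21 weeks calls among the 16 numbered 3 (12254 of all probes), but 0 with normexp correction (1098 of all). With 1 rat left out they numbered 2 to 5 (11404 to 14200 of all), the 5 being without adult male replicate 1. The sex by age tests gave 0 to 1 calls with 1 rat left out. Edn1 between 21 and 8 weeks was -0.01, but 0.18 with the raw median signal (limma, adjusted p = 0.0209), and the cause was not tested. With the replicate block, 0 of 10 rows were called at each age, and 6, 3 and 0 probes in the age comparisons as without it, while calls over all rows went from 28 to 5 at 8 weeks and from 14 to 5 at 21 weeks. At those ages the same-number correlations ran from -0.251 to 0.165 and from -0.161 to 0.533, so not every pair was above 0.1 and the numbers were not taken as pairs, although these rats too lay next to each other on a slide. Calls over all rows or probes ranged, over the settings other than leaving out a rat, from 5 to 40 at 8 weeks, 1 to 30 at 21 weeks and 0 to 9 at 78 weeks for sex, from 8 to 833 averaged over ages, and from 707 to 4442, 2582 to 31034 and 1098 to 13206 for 78 against 8, 21 against 8 and 78 against 21 weeks. Higher calls between 78 and 21 weeks made up 44.3%, but 72.4% with normexp correction, and between 78 and 8 weeks 54.0%, but 43.0% with quantile normalization. Probes not well above background carry no level.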

Other observations

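Adult rats were set against both other ages for the pathway genes too, where age and batch cannot be told apart. Between 21 and 8 weeks, 3 of 18 renin-angiotensin genes rose and 6 fell, where 53.5% of all probes passed. Hsd11b1, which regenerates glucocorticoid, rose by 0.62 (limma, adjusted p = 0.000162), Agtrap, a protein that binds the AT1 receptor, by 0.55 and the peptidase Thop1 by 0.23. Hsd11b2, which inactivates glucocorticoid, fell by 0.61. The peptidases Lnpep (-0.85), Anpep (-0.47), Enpep (-0.37), Prcp (-0.28) and Prep (-0.19) fell as well. Between 78 and 21 weeks, where 29.9% of all probes passed, 1 of 18 rose and 6 fell. Lnpep rose by 0.73, and Cpa3 (-0.97), Cma1 (-0.85), Agtrap (-0.55), Hsd11b1 (-0.53), Thop1 (-0.33) and Prcp (-0.32) fell. Edn2 rose by 0.66 (limma, adjusted p = 0.00159) between 8 and 21 weeks and fell by 1.10 between 21 and 78 weeks (limma, adjusted p = 4.82e-06). In the receptor coupling list 1 gene rose and 6 fell of 17 between 8 and 21 weeks. Rgs2 rose by 0.27, and Itpr2 (-0.98) and Itpr1 (-0.65), the calcium channels opened by inositol trisphosphate, Plcb4 (-0.53), Nos3 (-0.35), Prkca (-0.33) and Rgs4 (-0.26) fell. Between 21 and 78 weeks 5 rose and 4 fell. Itpr2 (1.07), Itpr1 (0.96), Plcb1 (0.62), Prkca (0.54) and Plcb4 (0.43) rose, and Arrb2 (-0.63), Rgs4 (-0.54), Rgs5 (-0.51) and Adrbk1 (-0.28) fell.

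None of these lists held a call for sex at a single age. The smallest p of the renin-angiotensin list was that of Sgk1 in young rats, at 0.18 (limma, adjusted p = 0.796), and of Klk1 in old rats, which was well above background on 0 of 10 arrays. In the receptor coupling list it was Plcb2 in young rats (-0.63, limma, adjusted p = 0.924, well above background on 3 of 10 arrays). It was Arrb2 in adult (-0.76, limma, adjusted p = 0.265) and old rats (-0.47, limma, adjusted p = 0.856).

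Averaged over the ages, the smallest p of the receptor coupling list was that of Arrb2, at -0.40 (limma, adjusted p = 0.0612), and Edn2 differed by -0.27 (limma, adjusted p = 0.363). Hsd11b1 was lower in females by 0.40, a difference of -0.40 (limma, adjusted p = 0.0542), and Enpep higher by 0.24 (limma, adjusted p = 0.0559), both short of the threshold. The probes most like Ednra A_44_P914382 over 30 arrays were those of Ppm1l (r = 0.907) and, for Ednrb, CF110668 (r = 0.827) and Zfp36l2 (r = 0.791). For Edn1 it was Kcns3 (r = 0.746), for Ace RGD1559904_predicted (r = 0.846), for Agtr1a Ipo9_predicted (r = 0.828) and for Ece1 CV116643 (r = 0.850).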
